A study of Sus scrofa with 12 samples.

Results

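IGF2, the gene for insulin-like growth factor 2, was read by 13 of the 23999 probe sets of a porcine Affymetrix array, control probe sets left out. A probe set is a group of short oligonucleotides that gives 1 intensity per array. The 13 were all those for which the platform's probe annotation gave IGF2 as the only symbol, and no measured value was used to choose them. Names of 12 of them begin with Ssc.9365, and the remaining one is Ssc.20525.1.S1_at. In this naming a suffix _a_at marks probes shared by transcripts of one gene, and _x_at marks sets with some probes that can match other sequences. The sources used here do not give the meaning of S1 and A1, the oligonucleotide sequences or the part of the transcript that each probe set covers.

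All RNA was from longissimus dorsi muscle, which runs along the spine, of pigs of the Chinese Meishan breed. There were 4 stages with 3 arrays each: fetuses at 65 days post coitus (65dpc), and pigs at 3, 60 and 120 days after birth (3d, 60d and 120d). Fetuses carried by one sow counted as 1 individual, no genotype or treatment differed by design, and the labels call the 3 samples of a stage biological replicates. Sex, litter after birth and hybridization date are not given, so the p-values measure only the spread between these samples. The study set out to follow expression across the genome as this muscle develops.

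IGF2 is a secreted growth factor that drives fetal growth and takes part in the formation of muscle. It signals through the type 1 IGF receptor (IGF1R) and a form of the insulin receptor (INSR), is taken up and degraded through IGF2R, and is carried by IGF-binding proteins. In most mammals the copy inherited from the father is the active one in fetal tissues, and several promoters give transcripts with different untranslated first exons. In many species its level falls after birth.

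Array medians ranged from 49.1 to 52.6, so the arrays were on one scale as deposited. The first principal component of the 16166 probe sets tested placed the fetal arrays apart from all others and held 55.0% of the variance. On the second component, fetal replicate 2 (-21.5) and 60d replicate 1 (-36.8) were the lowest, and IGF2 results that change without them are given so. The actin control ratio of 3-prime to 5-prime probe sets, a measure of RNA integrity and labelling, was 2.45 ± 0.168 (SD, n = 3) in the fetus, 3.61 ± 1.06 at 3d, 5.10 ± 1.17 at 60d and 5.08 ± 0.896 at 120d. The GAPDH ratio went the other way, from 1.46 ± 0.0168 in the fetus to 1.01 ± 0.0207 at 3d, 0.954 ± 0.00991 at 60d and 0.940 ± 0.0210 at 120d. Hybridization controls read lower on the fetal arrays (mean log2 intensity 9.62 to 9.66) than on the others (9.83 to 10.2). The part of the actin and GAPDH ratios in the IGF2 values was not tested. IGF2 calls on a scale centred on the hybridization controls are given further on.

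The 13 probe sets fell into a bright and a dim group. On every array 6 of them read above 100, from 124 to 3039, and the other 7 read between 12.1 and 134. All 6 bright probe sets were highest in the fetus and low at 60d and 120d. Their falls ranged from 2.08-fold to 9.09-fold between the fetus and 120d. Of the 13, 11 passed the filter on low values, which asked for an intensity above the 40th percentile of its own array (33.9 to 37.3) on at least 3 arrays.

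**Figure D1:**
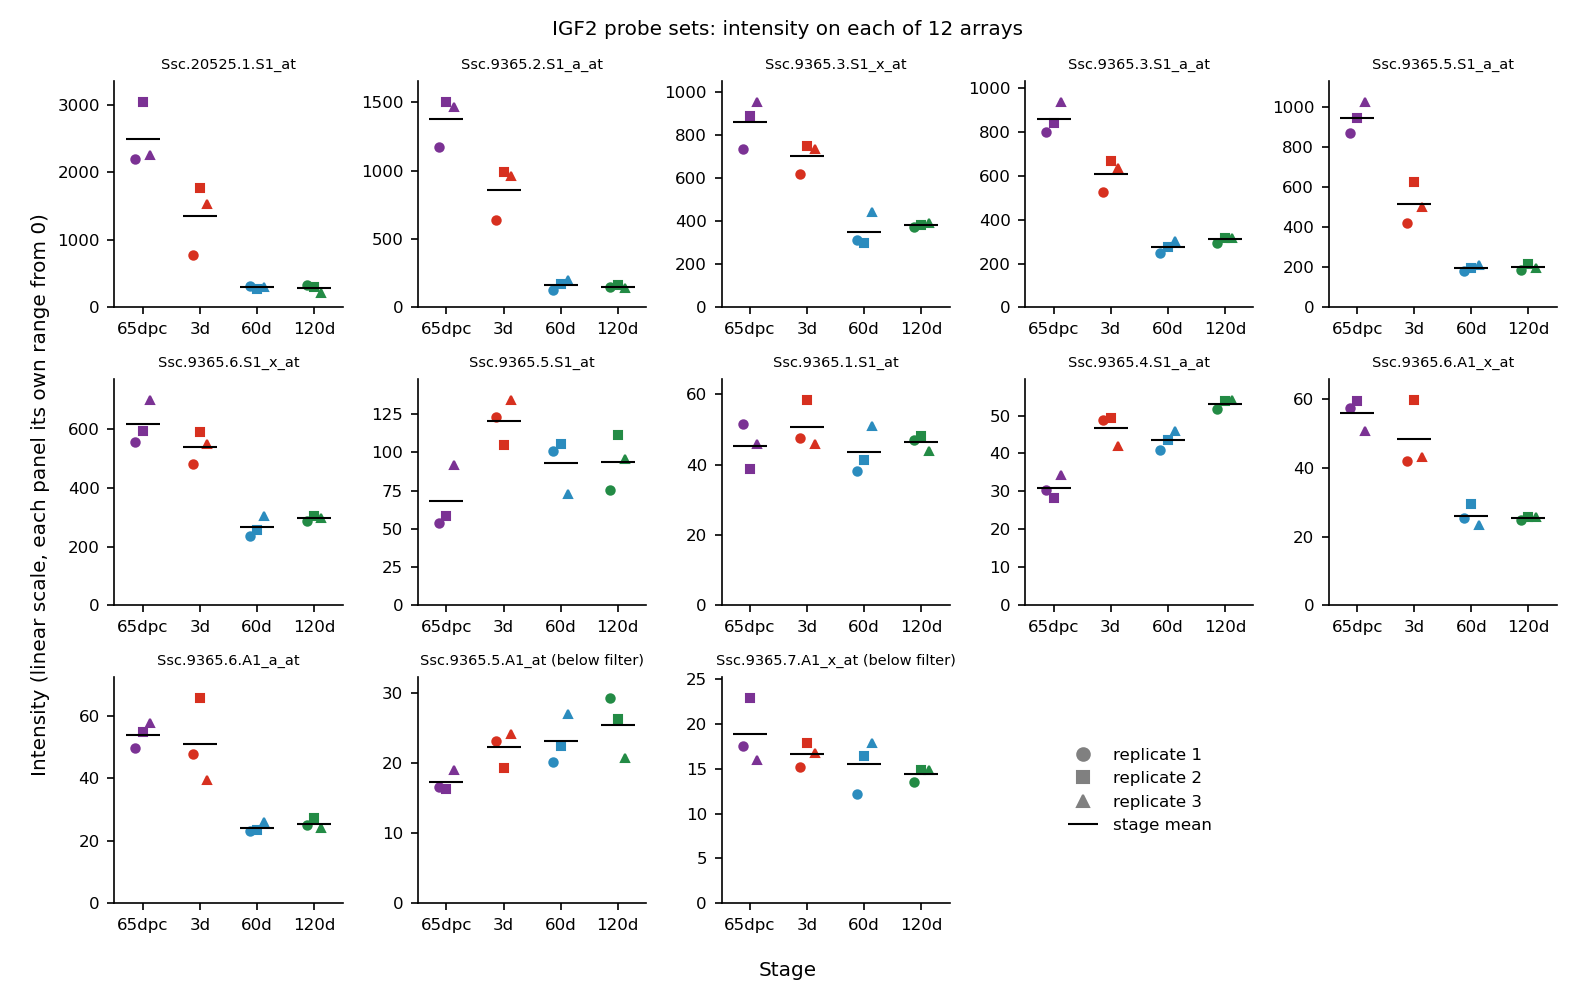
Intensity (linear, vertical axes from 0 and different in each panel) of the 13 IGF2 probe sets on each of 12 arrays, by stage, with markers for replicates and a bar for the stage mean. The first 6 panels step down after 3d, while the dim probe sets in the other panels differ in direction.

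Ssc.20525.1.S1_at had the highest mean over the 12 arrays. It read 2191, 3039 and 2252 in the fetal replicates, 772, 1768 and 1525 at 3d, 322, 272 and 305 at 60d, and 336, 305 and 211 at 120d. Every fetal array lay above every 3d array, and every 3d array above every later one, while 60d and 120d overlapped. The stage means were 2494 ± 473 (SD, n = 3), 1355 ± 519, 299.7 ± 25.8 and 284 ± 65.0.

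Ssc.9365.2.S1_a_at had the course nearest to it. Its intensities were 1175, 1502 and 1466 in the fetus, 637, 987 and 958 at 3d, 124, 168 and 197 at 60d, and 151, 164 and 141 at 120d. Here too the fetus, 3d and the later stages did not overlap, and 60d and 120d did. Between the fetus and 120d the mean fell from 1381 ± 179 to 152 ± 11.4 (SD, n = 3).

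Ssc.9365.5.S1_a_at fell to an intermediate extent. It read 871, 945 and 1025 in the fetus, 421, 627 and 502 at 3d, 179.7, 197 and 210.5 at 60d, and 185, 219 and 195 at 120d. The fetal, 3d and later arrays were again separate. Its fetal mean of 947 ± 76.9 (SD, n = 3) was 4.75 times that at 120d.

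The remaining 3 bright probe sets fell least. Ssc.9365.3.S1_a_at read 800.3, 843 and 937 in the fetus, 528, 668 and 634 at 3d, 248, 276 and 302 at 60d, and 296, 319 and 315 at 120d. Its fetal and 3d arrays did not overlap. Ssc.9365.3.S1_x_at read 736, 889 and 952, then 619, 750.1 and 734, then 311, 299.6 and 442, and last 372, 381 and 391. Ssc.9365.6.S1_x_at read 556, 593 and 697, then 479, 589 and 548, then 235, 257 and 305, and last 288, 302 and 298. In both _x_at sets the fetal and 3d arrays overlapped, and all arrays of these 2 stages lay above those of 60d and 120d.

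Among the dim probe sets, Ssc.9365.6.A1_a_at and Ssc.9365.6.A1_x_at had a course of the same direction. The first read 49.5, 54.8 and 57.5 in the fetus, 47.8, 65.6 and 39.5 at 3d, and 23.2 to 27.2 on the 6 later arrays. The second read 57.3, 59.5 and 50.8, then 42.1, 59.7 and 43.2, and 23.5 to 29.4 on the later arrays. For both, the fetal and 3d arrays overlapped and lay above all later ones. Each passed the filter only through its 6 fetal and 3d arrays, so a difference from the later stages was built into the choice.

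Ssc.9365.4.S1_a_at went the other way. It read 30.5, 28.3 and 34.2 in the fetus, 48.8, 49.5 and 42.0 at 3d, 41.0, 43.6 and 45.9 at 60d, and 51.7, 53.7 and 54.1 at 120d, with all fetal arrays below all others. It passed the filter only through its 9 arrays after birth, so its rise from the fetus is not independent of the filter. Ssc.9365.5.S1_at read 53.8, 58.4 and 91.4 in the fetus, 123, 105 and 134 at 3d, 101, 105 and 73.0 at 60d, and 75.4, 111 and 95.4 at 120d. Its fetal arrays lay below those of 3d and overlapped those of 60d and 120d.

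Ssc.9365.1.S1_at stayed between 38.2 and 58.4, with overlap between all stages. The 2 probe sets that failed the filter, Ssc.9365.5.A1_at (16.3 to 29.2) and Ssc.9365.7.A1_x_at (12.1 to 22.9), were above the 40th percentile on 0 arrays. Tested without a filter, Ssc.9365.5.A1_at was higher at 120d than in the fetus (log2 change 0.27, limma adjusted p = 0.0263), and no other step of either probe set was called.

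Between the fetus and 3 days after birth IGF2 gave calls in both directions. Changes are log2 differences of intensity plus 21, which understates the change of dim probe sets, ± SE from a limma fit, with Benjamini-Hochberg adjustment over all 16166 probe sets and a call at an adjusted p under 0.05. Of the 11 IGF2 probe sets tested, 4 were called lower, beside 22.6% of all probe sets, 2 were called higher, beside 20.3%, and 5 were not called. The median IGF2 change was -0.18, and that of all probe sets was 0.00 to 2 decimals. The arrays of the 2 stages did not overlap in 4 that were lower, beside 26.3% of all, and in 2 that were higher, beside 26.7%. These shares are near the background, since over 2 in 5 of all probe sets were called at this step. Of the 2 higher, Ssc.9365.4.S1_a_at passed the filter only through its 9 arrays after birth. Its rise was built into the choice and is not read against the background.

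The 4 lower calls were all bright probe sets. Ssc.20525.1.S1_at fell by 0.94 ± 0.29 (limma adjusted p = 0.0227), and Ssc.9365.5.S1_a_at by 0.86 ± 0.19 (adjusted p = 0.00334). Ssc.9365.2.S1_a_at fell by 0.69 ± 0.23 (adjusted p = 0.0276), and Ssc.9365.3.S1_a_at by 0.49 ± 0.17 (adjusted p = 0.0404). The 2 bright _x_at sets were not called, at -0.28 (Ssc.9365.3.S1_x_at, adjusted p = 0.270) and -0.18 (Ssc.9365.6.S1_x_at, adjusted p = 0.428). Among the dim sets, Ssc.9365.5.S1_at rose by 0.69 ± 0.19 (adjusted p = 0.0121) and Ssc.9365.4.S1_a_at by 0.38 ± 0.09 (adjusted p = 0.00694).

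Several of these calls lay near the threshold and were lost when 1 array was left out. The call of Ssc.20525.1.S1_at was lost without fetal replicate 2 (-0.79, limma adjusted p = 0.0827) or 3d replicate 1 (-0.58, adjusted p = 0.0971), and with array weights (0.0827); its adjusted p was 0.00444 to 0.0971 over 26 alternatives. That of Ssc.9365.2.S1_a_at was lost without fetal replicate 2 or 3 (-0.62 and -0.64) or 3d replicate 1 (-0.49; adjusted p 0.0650 to 0.123), and with only the 6 arrays of the 2 stages (0.0503) or with array weights (0.0564). Ssc.9365.3.S1_a_at lost its call without any 1 of the 9 arrays of the fetus, 3d and 120d (0.0554 to 0.149), at changes of -0.55 to -0.39, and its change was the same -0.49 without a 120d array, which enters only the estimate of spread. Ssc.9365.5.S1_at lost it without fetal replicate 1 (0.58, adjusted p = 0.0504). Ssc.9365.5.S1_a_at kept its call without each of the 12 arrays in turn, as did Ssc.9365.4.S1_a_at, for which the filter limit given above holds. Leaving out fetal replicate 2 and 60d replicate 1 together left 2 lower and 2 higher calls.

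Calls of the dim sets also depended on the scale. When arrays were centred on the hybridization controls, the median of all 16166 probe sets moved to -0.30 at this step, and calls over all of them changed from 3659 lower and 3286 higher to 5471 lower and 1174 higher. On that scale 7 IGF2 probe sets were called lower and 0 higher. Ssc.9365.4.S1_a_at then stood at 0.08 (limma adjusted p = 0.628, against 0.000304 to 0.628 over its 25 alternatives) and Ssc.9365.5.S1_at at 0.39 (adjusted p = 0.201, against 0.00266 to 0.201 over 26). Ssc.9365.3.S1_x_at (-0.58), Ssc.9365.6.A1_a_at (-0.37) and Ssc.9365.6.A1_x_at (-0.46) became lower calls, and Ssc.9365.1.S1_at, not called on either scale, went from 0.11 to -0.19.

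Between 3 and 60 days IGF2 fell in most of its probe sets while little else on the array was called. Of the 11 tested, 8 were called lower, beside 0.742% of all probe sets, and 0 higher, beside 0.786%. Here and in the other comparisons the 11 are readings of 1 gene on the same arrays, so their calls are not independent. All 6 bright probe sets were among the 8, and the arrays did not overlap in 8, beside 10.0% of all probe sets. The median IGF2 change was -0.97. The 8 included the 2 A1 sets that passed the filter only through their fetal and 3d arrays.

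Ssc.9365.2.S1_a_at fell by 2.25 ± 0.23 (limma adjusted p = 0.00165), from a mean of 861 ± 194 to 163 ± 36.8 (SD, n = 3). Ssc.20525.1.S1_at fell by 2.02 ± 0.29 (adjusted p = 0.00681), a ratio of means of 4.52, and Ssc.9365.5.S1_a_at by 1.30 ± 0.19 (adjusted p = 0.00676). The other 3 bright sets fell by 1.09 ± 0.17 (Ssc.9365.3.S1_a_at, adjusted p = 0.0124), 0.97 ± 0.20 (Ssc.9365.3.S1_x_at, 0.0333) and 0.97 ± 0.18 (Ssc.9365.6.S1_x_at, 0.0234). The dim Ssc.9365.6.A1_a_at fell by 0.65 ± 0.12 and Ssc.9365.6.A1_x_at by 0.55 ± 0.11. Ssc.9365.5.S1_at (-0.32), Ssc.9365.1.S1_at (-0.15) and Ssc.9365.4.S1_a_at (-0.07) were not called.

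The first 3 of these calls, of Ssc.9365.2.S1_a_at, Ssc.20525.1.S1_at and Ssc.9365.5.S1_a_at, held without each of the 12 arrays in turn. The call of Ssc.9365.3.S1_a_at was lost without 3d replicate 2 (-1.02, limma adjusted p = 0.0618), and that of Ssc.9365.6.S1_x_at without 3d replicate 1 or 2 or 60d replicate 1 (-1.05 to -0.89, adjusted p 0.0580 to 0.0990). Ssc.9365.3.S1_x_at lost it without any 1 of 8 arrays, those of 3d and 120d and 60d replicates 1 and 2 (-1.06 to -0.88, adjusted p 0.0525 to 0.132). Ssc.9365.6.A1_a_at lost it without 3d or 60d replicates 1 or 2 (-0.68 to -0.51, adjusted p 0.0554 to 0.0793). Ssc.9365.6.A1_x_at lost it without 3d replicate 1 or 2, 60d replicate 1 or 3 or 120d replicate 1 or 2 (-0.61 to -0.44, adjusted p 0.0555 to 0.113). These changes stayed near those of the full fit, so the lost calls were near the threshold. Without fetal replicate 2 and 60d replicate 1 together there were 4 lower calls, and with only the 6 arrays of the 2 stages there was 1, that of Ssc.9365.2.S1_a_at. Over all 16166 probe sets the same settings lowered the calls from 120 lower and 127 higher to 47 and 64, and to 13 and 26.

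**Figure D2:**
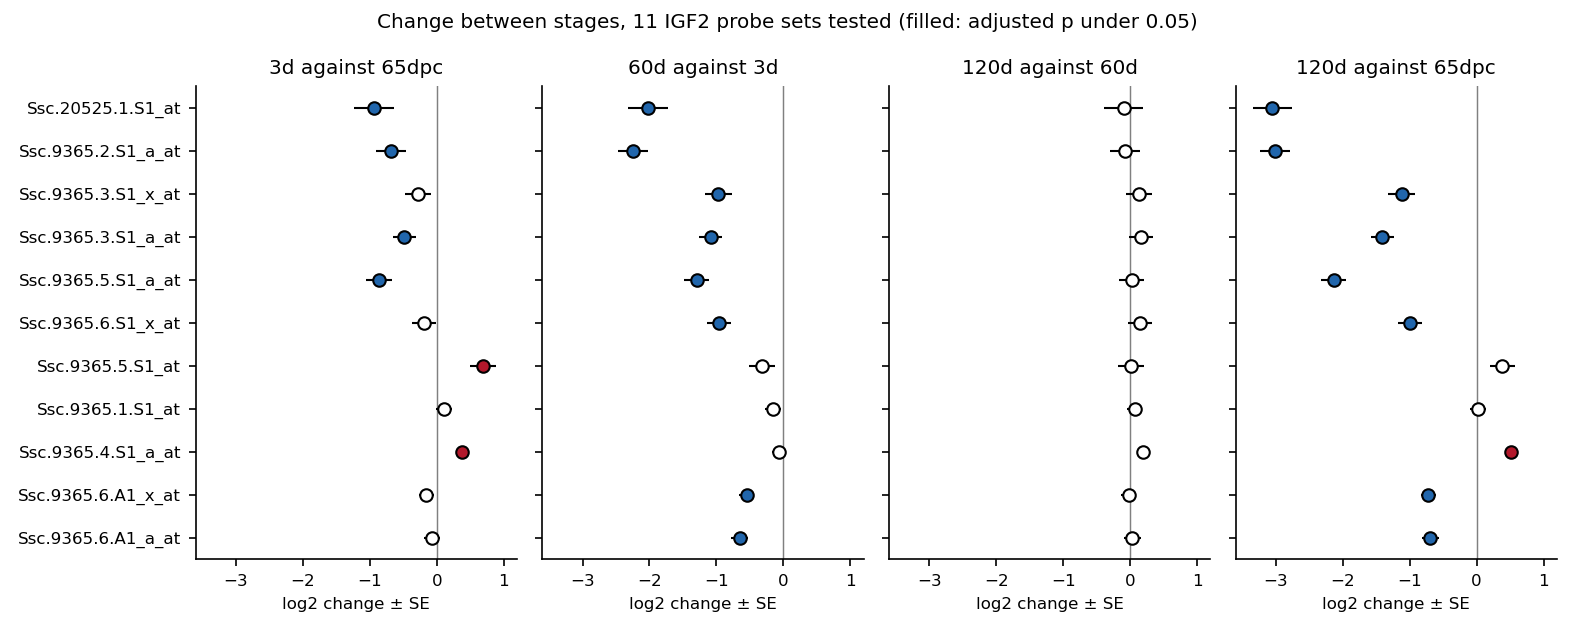
Log2 change ± SE (horizontal axes, limma fit of 12 arrays) of the 11 IGF2 probe sets tested, in 4 comparisons; blue points were called lower, red points higher and open points were not called. The step from 3d to 60d has 8 blue points, and the step from 60d to 120d has 0 filled points.

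From 60 to 120 days IGF2 did not move past the threshold in any probe set. Calls were 0 of 11 in either direction, beside 0 of all 16166 (0% lower and 0% higher), and 0 IGF2 probe sets reached an unadjusted p under 0.05 in limma. IGF2 changes lay between -0.09 and 0.20, with a smallest adjusted p of 0.774. For Ssc.20525.1.S1_at the change was -0.09 ± 0.29 and for Ssc.9365.2.S1_a_at -0.07 ± 0.23.

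The comparison of 120 days with the fetus shares its arrays with the steps above and sums them. It called 8 IGF2 probe sets lower, beside 25% of all, and 1 higher, beside 23.4%, with 2 not called. The 8 included the 2 A1 sets that passed the filter only through fetal and 3d arrays, and the 1 higher passed only through arrays after birth, so these 3 had to differ and are not read against the background. Arrays did not overlap in the 8 lower ones, beside 30.6% of all probe sets. Ssc.20525.1.S1_at fell by 3.05 ± 0.29 (limma adjusted p = 1.29e-05), Ssc.9365.2.S1_a_at fell by 3.01 ± 0.23 (2.53e-06) and Ssc.9365.5.S1_a_at fell by 2.13 ± 0.19 (6.51e-06). Ssc.9365.3.S1_a_at fell by 1.41 ± 0.17, Ssc.9365.3.S1_x_at fell by 1.12 ± 0.20 and Ssc.9365.6.S1_x_at fell by 0.999 ± 0.18. The 9 calls held without each array in turn.

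The 1 higher call was Ssc.9365.4.S1_a_at (0.51 ± 0.09, limma adjusted p = 0.000922). Centring on the hybridization controls, which moved the median of all probe sets to -0.46, reduced it to 0.05 (adjusted p = 0.732, against 7.49e-05 to 0.732 over 25 alternatives). On that scale Ssc.9365.1.S1_at, which stood at 0.02 as deposited (adjusted p = 0.877), was called lower (-0.44, adjusted p = 0.00834, against 0.00834 to 0.979 over 25 alternatives). Ssc.9365.5.S1_at was not called (0.38, adjusted p = 0.115) and was called without fetal replicate 3 (0.56, adjusted p = 0.0253) and with array weights (0.54, adjusted p = 0.0131), the adjusted p ranging from 0.0131 to 0.800 over 26 alternatives. A limma F test over the 4 stages called 9 of the 11, beside 46.9% of all probe sets. The exceptions were Ssc.9365.1.S1_at (adjusted p = 0.685) and Ssc.9365.5.S1_at (0.0540). Among the 9 called were Ssc.9365.4.S1_a_at and the A1 sets tested, which passed the filter only through arrays of some stages. A difference between stages was built into their choice, so they are not read against the background.

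The courses of the IGF2 probe sets were then set against each other within arrays. Since all 13 carry one symbol and were read on the same arrays, the log2 difference from Ssc.20525.1.S1_at on the same array removes any factor common to a whole array. Its one-way F over the stages was tested by an exact permutation test, one-sided, over the 15400 distinct ways to divide 12 arrays into 4 groups of 3, of which the smallest possible p is 6.5e-05. Of 12 probe sets compared, 11 differed in course (exact permutation adjusted p 0.000779 to 0.0189, adjusted over the 12). These include flat, dim and unfiltered sets, and nearly every probe set on the array differed from this steeply falling one in the step test given further on, so the count describes the reference. Ssc.9365.2.S1_a_at was the exception (exact permutation p = 0.697). With the median of all IGF2 probe sets as reference, 7 of 12 differed, and Ssc.9365.2.S1_a_at was then among them (exact permutation adjusted p = 0.00260).

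Its intensity relative to Ssc.20525.1.S1_at was 0.560 ± 0.0811 (SD, n = 3) in the fetus, 0.670 ± 0.138 at 3d, 0.551 ± 0.144 at 60d and 0.552 ± 0.110 at 120d. The difference between their log2 changes from the fetus to 120d was 0.04, with a 95% interval from -0.50 to 0.58, so unequal falls within that interval could not be seen. The other 4 bright sets rose relative to Ssc.20525.1.S1_at, meaning that they fell less. Between the fetus and 120d the ratio went from 0.353 to 1.14 for Ssc.9365.3.S1_a_at, from 0.350 to 1.4 for Ssc.9365.3.S1_x_at, from 0.253 to 1.09 for Ssc.9365.6.S1_x_at and from 0.388 to 0.730 for Ssc.9365.5.S1_a_at. A ratio level between probe sets has no meaning in itself, as each has its own oligonucleotides, and only its change over the stages is read here.

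**Figure D3:**
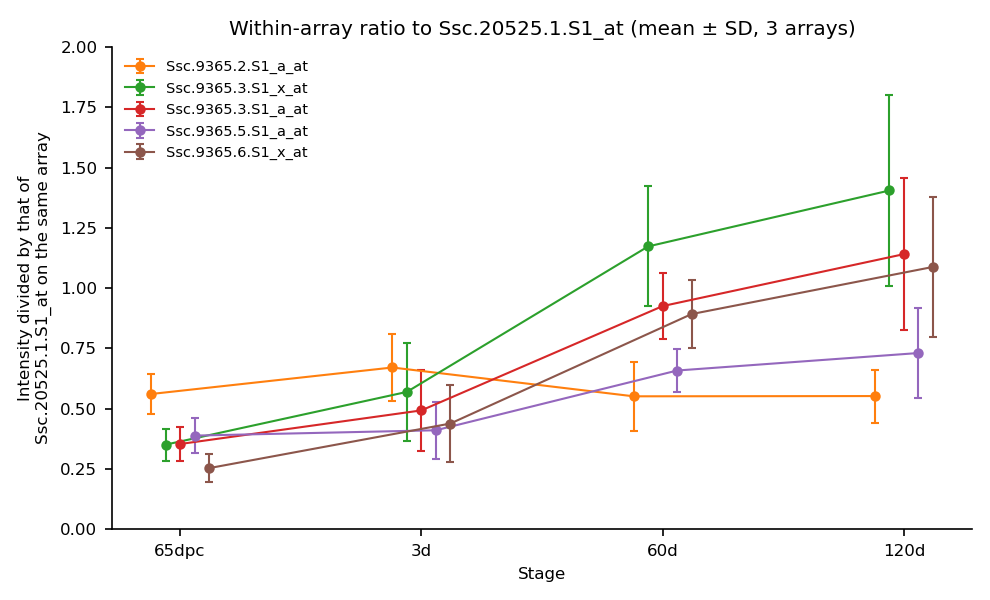
Intensity of 5 bright IGF2 probe sets divided by that of Ssc.20525.1.S1_at on the same array (mean ± SD, 3 arrays per stage) against stage. Ssc.9365.2.S1_a_at stays between 0.551 and 0.670, while the other 4 rise, up to 1.4 for Ssc.9365.3.S1_x_at.

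The step at which more IGF2 probe sets were called different depended on the reference. Differences of log2 changes were fitted for all probe sets with the ordinary variance of each, a setting chosen after the data were seen. At the first step 4 of 10 IGF2 probe sets tested differed from Ssc.20525.1.S1_at, beside 44.4% of all probe sets, and none of the 4 was bright. From 3d to 60d 9 of 10 differed, beside 97.8% of all, and from the fetus to 120d 9 of 10, beside 98.1%. Since nearly every probe set differed from this strongly falling one, these counts describe Ssc.20525.1.S1_at more than the others. With the median of all IGF2 probe sets as reference, in a moderated limma fit, 7 of 10 differed at the first step and 1 from 3d to 60d. The order was opposite to the 4 and 8 that this fit gave with Ssc.20525.1.S1_at. The share of all probe sets was not taken for the median reference, so its counts are not read against a background. From 3d to 60d the difference was 0.93 (95% interval 0.29 to 1.58) for Ssc.9365.3.S1_a_at and 0.73 (0.14 to 1.31) for Ssc.9365.5.S1_a_at, and -0.23 (-0.77 to 0.31) for Ssc.9365.2.S1_a_at. In the moderated limma fit Ssc.9365.5.S1_a_at was not called at that step (adjusted p = 0.0872, against 0.0218 with ordinary variances).

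The bright probe sets also varied together among replicates. Over the 12 arrays Pearson's r between them was 0.950 to 0.992 in the 15 pairs, and over the 9 arrays after birth 0.919 to 0.997. With stage means removed r was 0.346 to 0.955. These correlations describe probe sets of one gene on shared arrays. Fetal replicate 1 and 3d replicate 1 were the lowest of their stage in 6 of 6 bright sets, and 3d replicate 2 was the highest of its stage in 6 of 6. Replicate 1 was also the lowest in 4 of 6 at 60d and in 4 of 6 at 120d. At 3d replicate 1 the deviations ran from -0.71 (Ssc.20525.1.S1_at) to -0.16, while its array median of 51.2 lay within the range of the other arrays.

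**Figure D4:**
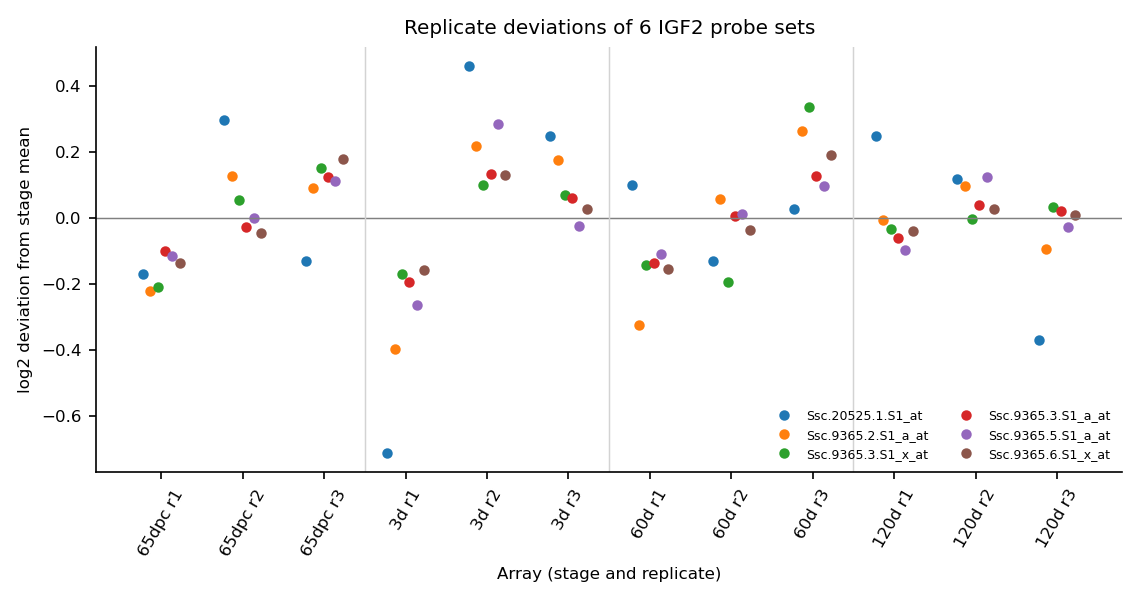
Log2 deviation of 6 bright IGF2 probe sets from their stage mean on each array (r1 to r3 are replicates 1 to 3). All 6 points lie below 0 at fetal replicate 1 and at 3d replicate 1, where Ssc.20525.1.S1_at reaches -0.71.

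Other genes on the array with at least 8 probe sets were set beside IGF2. There were 6 such genes, of which B2M (beta-2-microglobulin), RAN (a GTPase of nuclear transport) and LOC100621559 had 9 probe sets tested each. At the first step B2M had 2 lower and 2 higher calls and RAN 2 lower and 1 higher, beside 22.6% lower and 20.3% higher of all probe sets. BBX had 6 lower and 0 higher calls among 8 tested, LOC100621559 had 0 and 1 among 9, and CYP19A3 and LOC102160313 each had 0 and 2 among 2. Calls in opposite directions within a gene thus also occurred outside IGF2, but among these 6 genes only in B2M and RAN. From 3d to 60d each of the 6 genes had 0 calls, while IGF2 had 8, the 2 filter-dependent A1 sets included. The shares of all probe sets at this step were 0.742% lower and 0.786% higher, so 0 calls says little about the 6 genes. For 2 of the 6 genes, CYP19A3 and LOC102160313, only 2 probe sets were tested. B2M changes at that step ran from -1.90 to 0.72 without a call, a wider span than that of IGF2 (-2.25 to -0.07).

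Of the 22 listed genes of the IGF system, 12 were on the array under their symbol and 9 passed the filter. Among ligands, IGF1 was not called at any adjacent step and was higher at 120d than in the fetus (0.38 ± 0.14, limma adjusted p = 0.0336). That call was lost with control centring (0.728), with the replicate number as a block (0.0617) and without fetal replicate 1 or 3 or 120d replicate 2 or 3 (0.0510 to 0.119). INS, the insulin gene, did not pass the filter. Among receptors, IGF1R read 47.8 in the fetus and 23.7 at 120d (-0.59 ± 0.22, adjusted p = 0.0429), a call lost in 8 of the 12 fits without 1 array (0.0505 to 0.167), with the replicate block (0.0528) and without a variance trend (0.0584). IGF1R was above the filter threshold on 4 arrays, 2 of them fetal. IGF2R and INSR were not called at any step.

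Among binding proteins, IGFBP2 fell from 327 in the fetus to 79.1 at 3d (-1.77 ± 0.25, limma adjusted p = 0.000255) and stood 2.01 lower on the log2 scale at 120d. IGFBP5, IGFBP6 and IGFALS, which forms a complex with IGFs and binding proteins in blood, were not called. IRS1, an adaptor that passes the signal on inside the cell, rose from 24.2 to 79.3 at 3d (1.13 ± 0.20, adjusted p = 0.000903) and was 1.28 higher at 120d. IRS1 passed the filter only through its 9 arrays after birth, so it had to differ from the fetus. In counts, 1 of 9 was higher and 1 lower at 3d, 0 of 9 were called from 3d to 60d or from 60d to 120d, and 2 were higher and 2 lower between the fetus and 120d, beside the shares of all probe sets given above for each comparison. The list's median changes were 0.06, -0.01, -0.04 and 0.00 (to 2 decimals) in the same order. The calls of IGFBP2 and IRS1 held in all 25 alternatives run for them in both comparisons. With control centring the list had 1 higher and 2 lower calls at 3d, and 1 and 5 at 120d. Over all 16166 probe sets that scale gave 1174 higher and 5471 lower calls at 3d, and 1122 and 7404 at 120d.

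Among 17 listed imprinted genes that act in growth, 10 were on the array and 8 passed the filter. In the first step 7 of 8 were lower and 0 higher, with a median change of -1.77, beside 22.6% lower and 20.3% higher of all probe sets. For PHLDA2, 1 of the 7, the fetal and 3d arrays overlapped. Its call was lost without fetal replicate 1 or 3 or 3d replicate 1 or 2 (limma adjusted p 0.0681 to 0.109). PEG10, an imprinted gene of retrotransposon origin, fell by 3.28 ± 0.35 (limma adjusted p = 4.14e-05). MEG3, an imprinted non-coding RNA, fell by 2.10 ± 0.24, NNAT (neuronatin) by 2.01 ± 0.24 and PLAGL1, a zinc finger transcription factor, by 1.93 ± 0.20. NNAT was above the filter threshold on its 3 fetal arrays and 2 others and PEG3 on its 3 fetal arrays and 1 other, so both passed it mainly through the group where they were high. From 3d to 60d 1 of 8 was called, beside 0.742% lower of all, PEG10 (-1.80 ± 0.35, adjusted p = 0.0282), and that call was lost without 3d replicate 1 or 2, 60d replicate 1 or 2 or 120d replicate 1 (0.0510 to 0.113). From 60d to 120d 0 of 8 were called. Between the fetus and 120d 7 were lower, beside 25% of all, and 1 was higher, beside 23.4%. The higher one was GRB10, an adaptor that restrains insulin and IGF receptor signalling (1.94 ± 0.47, limma adjusted p = 0.00469). Over that span PEG10 fell by 5.84, PLAGL1 fell by 2.96, MEG3 fell by 2.83 and NNAT fell by 2.25.

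Of the 10 genes nearest to IGF2 in the RefSeq gene table (Sscrofa11.1), 5 on each side, 3 were on the array and 2 were tested. TNNT3, the troponin T of fast muscle fibres, rose by 0.85 ± 0.16 at 3d (limma adjusted p = 0.00118) and was not called from 3d to 60d (-0.33, adjusted p = 0.324). ASCL2, a transcription factor, was not called at an adjacent step and was 0.46 higher at 120d than in the fetus (adjusted p = 0.0224). That call was lost with control centring and without fetal replicate 1 or 2 or 120d replicate 3 (0.0777 to 0.0866). ASCL2 was above the filter threshold on 9 arrays, 1 of them fetal, so it passed mainly through the stages where it was high.

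The 5 genes with the course nearest to Ssc.20525.1.S1_at, by root mean square difference of centred log2 values over 12 arrays among 5611 genes, were DNMT1 (0.475), RPL3 (0.539), MAGED1 (0.552), CKAP4 (0.555) and DDAH1 (0.556). The median over genes was 1.39. DNMT1, which maintains DNA methylation, read 513 ± 175 (SD, n = 3) in the fetus, 207 ± 59.3 at 3d, 88.6 ± 15.3 at 60d and 60.9 ± 5.77 at 120d. RPL3, a protein of the large ribosomal subunit, read 3635 ± 433, 2111 ± 687, 996 ± 88.3 and 733 ± 67.5. By Pearson's r, 2 of these 5, RPL3 and DNMT1, were again among the nearest 5.

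**Figure D5:**
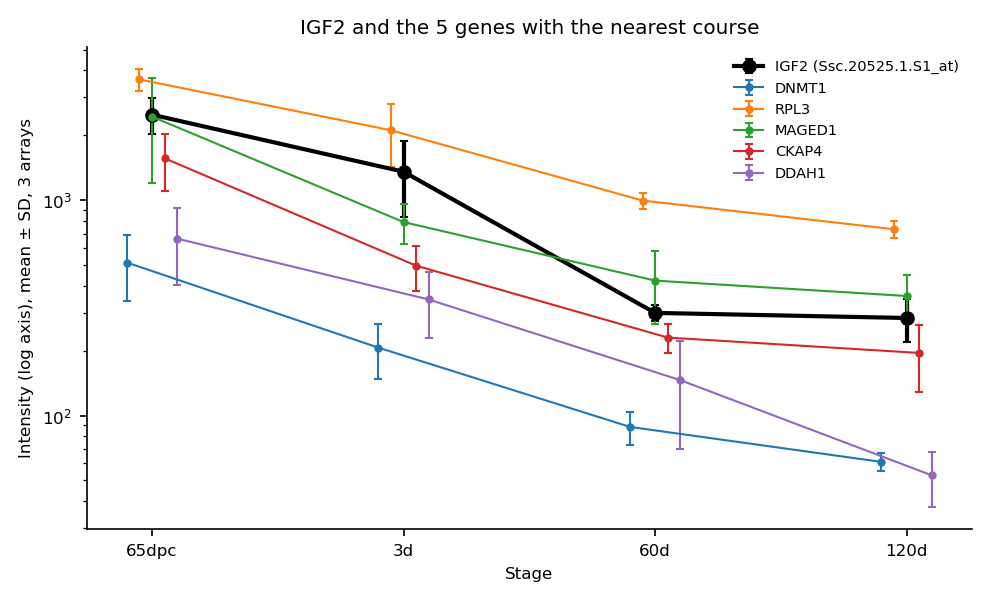
Mean intensity ± SD (log axis, 3 arrays per stage) of IGF2 by Ssc.20525.1.S1_at and of the 5 genes nearest to it in course. All 6 lines descend from the fetus to 120d; levels of different genes are not comparable.

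In bulk tissue, fewer cells of a type and less RNA per cell cannot be told apart. At 3d against the fetus, where 22.6% of all probe sets were lower and 20.3% higher, 2 of 3 tested fibroblast and connective tissue markers were lower (summed intensity 6654 to 10416 in the fetus and 2590 to 3856 at 3d), as was 1 of 2 muscle progenitor markers (466 to 743 and 154 to 266). Of 6 muscle fibre markers 4 were higher (15351 to 23236 and 32853 to 34145), as were 2 of 3 adipocyte markers. Among the adipocyte markers, LEP was above the filter threshold on 9 arrays and ADIPOQ on 3, of which 0 were fetal. A higher value than in the fetus was thus built into their choice. Of endothelial markers 1 of 5 was lower, of erythroid 1 of 2, of hepatocyte 1 of 1, and of immune markers 0 of 3 were called. The other 3 hepatocyte markers failed the filter.

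From 3d to 60d, where IGF2 fell in 8 probe sets, 0 markers of these 8 lists were called, beside 0.742% lower and 0.786% higher of all probe sets, so 0 calls among so few genes says little about them. The summed fibroblast list ranged from 2590 to 3856 at 3d and from 2602 to 4912 at 60d, and the progenitor list from 154 to 266 and from 88.4 to 199.8. The part of cell composition in the IGF2 changes was not tested. Between the fetus and 120d, 4 of 6 muscle fibre markers and 1 of 3 adipocyte and immune markers each were higher, and 3 of 3 fibroblast, 1 of 2 progenitor, 2 of 5 endothelial, 1 of 1 hepatocyte and 1 of 2 erythroid markers were lower, beside 23.4% higher and 25% lower of all. The filter limit given above for LEP and ADIPOQ holds here too.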

How the data were processed

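Total RNA extracted with Trizol was labelled with biotin and hybridised to Affymetrix porcine arrays, per the labels' protocols. The authors deposited 1 linear intensity for each probe set on each array, and the submitters' processing notes name GCOS 1.4. The sources used here do not give the summary method, background correction or scaling target. Symbols came from the platform annotation, which gives 1 symbol for 10069 probe sets, several for 198 and lists none for 13732.

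Values were transformed as log2(intensity + 21), 21 being their 25th percentile, without further normalization, and 16166 of 23999 probe sets (67.4%) passed the filter. Two-sided tests came from one limma fit over 12 arrays with stage as the only factor and a trended prior variance (8 residual and 4.26 prior degrees of freedom). It was tested on simulated data. Where a gene had several probe sets, the brightest over all arrays stood for it.

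The members, gene lists and tests were chosen with earlier results of these data known. All IGF2 probe sets are described. Of other genes, at most 4 called ones are given for each list and step, with the 5 nearest in course. GRB10, the 1 imprinted gene called higher, and genes whose calls were limited by the filter or by single arrays are given besides. IGF1, the receptors and the other IGF2 neighbours are named beside them for their role. Alternatives were pseudocounts of 1 and 51, other filters, normalizations and variance models, array weights, fewer arrays, a replicate block and a 2-fold minimum. Programs were limma 3.58.1 under R 4.3.3 and Python 3.11.15, pandas 2.3.3 and matplotlib 3.10.9.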

Additional observations from a re-analysis of the deposited data

How the results depend on the processing

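Counts of IGF2 calls stayed within 1.5 times of those reported except as follows. With a 2-fold minimum 0 probe sets were called at 3d against the fetus, 4 at 60d against 3d and 5 at 120d against the fetus. With only the 6 arrays compared, 1 was called at 60d against 3d, and with fetal replicate 2 and 60d replicate 1 left out together, chosen after seeing the data, 4. Leaving out each array in turn gave 3 to 6 calls at 3d against the fetus and 3 to 8 at 60d against 3d. Ssc.9365.1.S1_at at 120d against the fetus changed sign and was called lower (-0.44) with centring on the hybridization controls, which moved the median of all probe sets by -0.46 there and every probe set alike.

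With the median of all IGF2 probe sets as reference in place of Ssc.20525.1.S1_at, 7 courses differed. A moderated fit of the step differences had infinite prior degrees of freedom, so each probe set was given the variance of the trend in place of its own; its adjusted p was larger for some probe sets and smaller for others than with the ordinary variances, which were used. That moderated fit called 4, 8 and 9 of 10 in the 3 comparisons, 7 and 1 at the first and second with the median reference, and 2 to 5 and 5 to 9 with each array left out. For the median reference the share of all probe sets was not taken.

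With the replicate number as a block (replicate block), 5 IGF2 probe sets were called at 3d against the fetus, 7 at 60d against 3d, 0 at 120d against 60d and 9 at 120d against the fetus. The lost calls were Ssc.9365.3.S1_a_at at 3d (limma adjusted p = 0.0615) and Ssc.9365.3.S1_x_at at 60d (0.0542). Deviations of the 18 same-numbered pairs correlated between -0.424 and 0.297, with 8 above 0.1, and 3 of 12 arrays correlated best with their own number. With so few arrays these values do not settle whether the numbers pair the samples. The 3 arrays per stage limit the precision of every value.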
